A study of Mus musculus with 9 samples.

Results

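The pentose phosphate pathway was followed through the mRNA of its 8 enzyme genes in mouse embryonic fibroblasts (MEFs), the connective-tissue cells grown from mouse embryos. The oxidative arm was taken as *G6pdx*, *H6pd*, *Pgls* and *Pgd*, and the non-oxidative arm as *Rpia*, *Rpe*, *Tkt* and *Taldo1*. These genes were chosen by name, with earlier results of these data known, and all 8 were found among the 24341 genes listed for each library. RNA-Seq had been done on MEFs of 3 genotypes on a C57BL/6 background, with 3 libraries each: WT, *Atm-/-*, which are meant to lack the DNA damage kinase ATM, and *Sirt6-/-*, which are meant to lack the deacylase SIRT6. All were grown in DMEM with 10% FBS, and no drug treatment is given for these libraries. The labels also name *P53-/-* and *Atm-/-P53-/-* mice among the sources of cells without tying them to a library. The study's methods describe immortalized *Atm-/-;p53-/-* MEFs and *Sirt6-/-* MEFs received from separate laboratories, and do not say which cells were sequenced. The effect of the labelled genotype, the p53 status and the origin of the cell line therefore cannot be told apart in any comparison. Nothing in the labels says that the 3 libraries of a genotype came from separate cultures or embryos, so the p-values measure the spread between these libraries, which may be technical.

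The pathway branches from glycolysis at glucose 6-phosphate. Its oxidative arm is irreversible, releases CO2 and reduces NADP+ to NADPH, which cells spend on lipid synthesis and on keeping glutathione and thioredoxin reduced. The non-oxidative arm is a set of reversible exchanges that turns the resulting pentose phosphate into ribose 5-phosphate for nucleotides or returns the carbon to glycolysis as fructose 6-phosphate and glyceraldehyde 3-phosphate. Both proteins named in the genotypes have textbook links to sugar metabolism. ATM can promote glucose-6-phosphate dehydrogenase activity through the small heat shock protein HSPB1. SIRT6 restrains HIF1A-driven transcription of glycolytic genes. p53 binds and inhibits glucose-6-phosphate dehydrogenase and induces *Tigar*.

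The 8 genes lie on 7 chromosomes. In GENCODE M21 on GRCm38, the mm10 build named in the submitters' processing notes, *G6pdx* spans 74409483 to 74429194 of chromosome X on the minus strand. *H6pd* (149979475 to 150009023) and *Pgd* (149149991 to 149166771) both lie on the minus strand of chromosome 4. *Pgls* spans 71592176 to 71601092 of chromosome 8, *Rpia* 70765720 to 70792232 of chromosome 6 (minus strand), *Rpe* 66700831 to 66719805 of chromosome 1, *Tkt* 30548359 to 30574720 of chromosome 14 and *Taldo1* 141392199 to 141402968 of chromosome 7. The promoter stretches of the oxidative genes *Pgls* and *Pgd* and of the non-oxidative genes *Rpia* and *Taldo1* are shown because these genes moved in opposite directions in *Sirt6-/-* MEFs. They are RefSeq sequence of GRCm38.p6, read along the gene from up to 250 bases before the RefSeq start, and end before the first annotated exon base. Capitals mark a GC box (GGGCGG) or a CCAAT box (CCAAT), searched on both strands. The GC box of *Rpia* and both CCAAT boxes of *Pgd* lie in the exonic bases that are not printed. For *G6pdx*, whose 250-base window lies wholly within an annotated *G6pdx* exon, only the site around its match to the antioxidant response element core (TGACNNNGC), in capitals, is shown.
Pgls (chr8:71591934-71592175, plus strand, 242 bases): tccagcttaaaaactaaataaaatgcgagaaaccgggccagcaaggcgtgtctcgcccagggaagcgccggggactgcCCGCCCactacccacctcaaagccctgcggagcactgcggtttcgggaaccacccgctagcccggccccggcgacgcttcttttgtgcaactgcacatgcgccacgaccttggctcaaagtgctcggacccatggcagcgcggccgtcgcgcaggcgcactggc
Pgd (chr4:149166772-149166955, minus strand, 184 bases): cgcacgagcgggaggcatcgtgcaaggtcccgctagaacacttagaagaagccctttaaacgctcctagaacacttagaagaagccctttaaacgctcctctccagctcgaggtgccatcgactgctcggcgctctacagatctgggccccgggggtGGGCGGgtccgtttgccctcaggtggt
Rpia (chr6:70792233-70792425, minus strand, 193 bases): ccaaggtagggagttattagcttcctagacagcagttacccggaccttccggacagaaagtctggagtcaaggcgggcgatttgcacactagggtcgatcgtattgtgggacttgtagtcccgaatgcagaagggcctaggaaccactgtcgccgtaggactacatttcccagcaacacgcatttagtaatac
Taldo1 (chr7:141391910-141392159, plus strand, 250 bases): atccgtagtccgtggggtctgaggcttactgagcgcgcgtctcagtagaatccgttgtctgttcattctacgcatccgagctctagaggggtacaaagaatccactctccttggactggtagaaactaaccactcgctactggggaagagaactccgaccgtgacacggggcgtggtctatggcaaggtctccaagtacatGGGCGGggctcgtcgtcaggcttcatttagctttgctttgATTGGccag
G6pdx (site, chrX:74428919-74428947, minus strand, 29 bases): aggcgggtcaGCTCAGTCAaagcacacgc

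The antioxidant response element core, the letters read by the NFE2L2 family, was found in the window of *G6pdx* and in none of the other 7 members. It stood 57 bases before the start, on the strand opposite to the gene, and 10.2% of 32817 promoter windows of the same length hold such a match. A GC box was present in a window of 7 members, all but *H6pd*, against 32.7% of all windows, which were not matched for GC content. *Pgd* also had a second window, lying inside its gene, without a match to any motif searched. *Tkt* had 3 matches and *Rpe* 2. The CCAAT box was found in *H6pd*, *Pgd* and *Taldo1*, against 33.8% of all windows, and the E-box CACGTG in none of the members, against 6.02%. Each arm thus held windows with a GC box and windows with a CCAAT box. The windows of *H6pd*, *Tkt* and *G6pdx* lay wholly inside their GENCODE genes, downstream of the annotated gene start, so they may not be the promoters used in MEFs.

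Library totals ranged from 32187040 to 33837949 counted reads, and 3 reads, taken as the limit of detection, corresponded to 0.0887 to 0.0932 CPM, counts scaled to a common library size. This limit covers counting error only. All members were well above it, with counts between 483 (*Rpia*) and 10191 (*Pgd*) reads. *Sirt6* had 402 to 487 reads in WT and 4 to 7 in *Sirt6-/-*. *Atm* was higher in the libraries labelled *Atm-/-* (3443 to 3768 reads) than in WT (1536 to 1627), so its RNA level does not check that label, and gene counts do not show which exons were read. *Trp53* had 806 to 946 reads in *Atm-/-* and 6563 to 7108 in WT. Of 11 fibroblast markers, 10 were above 1 CPM in WT and *Atm-/-* and 9 in *Sirt6-/-*, where *Thy1* and *Lum* were lower, and *Lum* was below 1 CPM in all 3 genotypes. The summed fibroblast markers were 28145 to 31231 CPM in WT, 9114 to 9361 in *Atm-/-* and 20225 to 20573 in *Sirt6-/-*. The summed neural markers were 5.31 to 6.68, 176.3 to 190.3 and 217.9 to 236.3 CPM, of which *Nes* made up most, while *Sox10* and *Gfap* stayed below 1 CPM. Epithelial markers summed to at most 48.5 CPM, muscle markers to 15.2, endothelial markers to 12.5 and immune markers to 12.1. The part of these shifts in the results below was not tested. In these bulk libraries, fewer cells of a kind and less RNA per cell cannot be told apart.

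In WT MEFs, the non-oxidative enzymes at the end of the pathway were the most abundant transcripts. Levels are given as normalized RPKM, CPM after TMM scaling divided by the listed transcript length in kilobases, as mean ± SD of 3 libraries. *Taldo1* stood at 125.6 ± 9.51, followed by *Tkt* (85.1 ± 4.19), *Pgd* (77.7 ± 1.92) and *G6pdx* (42.5 ± 2.96). *Pgls* (24.0 ± 2.25) and *Rpe* (22.2 ± 0.956) came next and overlapped. *Rpia* (17.9 ± 1.58) and *H6pd* (8.68 ± 1.07) were lowest.

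In *Atm-/-* MEFs *Taldo1* was still highest at 90.3 ± 5.65, now followed by *Pgd* (80.5 ± 5.67). *Tkt* (70.0 ± 2.54) and *G6pdx* (68.1 ± 3.82) overlapped. *Pgls* was at 42.5 ± 14.4 and *Rpe* at 15.1 ± 0.642. The lowest pair, *Rpia* (8.66 ± 0.911) and *H6pd* (7.72 ± 0.173), overlapped as well.

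In *Sirt6-/-* MEFs *Pgd* led at 130.9 ± 6.06, then *Tkt* (78.1 ± 2.14). *G6pdx* (52.2 ± 2.93) and *Taldo1* (48.8 ± 0.984) overlapped, so that the most abundant WT transcript of the pathway had fallen to the level of *G6pdx*. *Pgls* (39.7 ± 5.18) and *H6pd* (30.9 ± 0.511) followed, above *Rpe* (12.7 ± 0.987) and *Rpia* (10.3 ± 0.929).

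**Figure D1:**
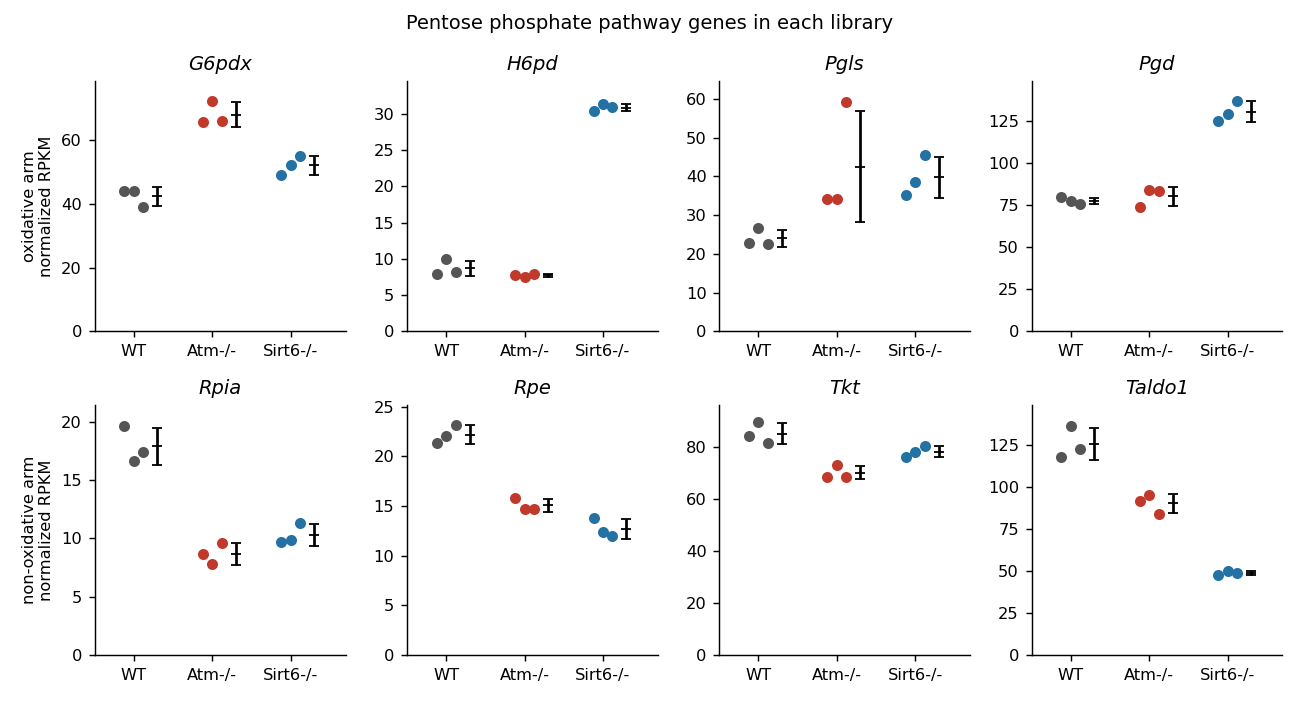
Normalized RPKM (vertical axes, from 0) of the 4 oxidative (top) and 4 non-oxidative (bottom) genes in the 9 libraries; each point is a library and the bar beside it the mean ± SD of 3. *H6pd* sits near 30 only in *Sirt6-/-*, 1 *Atm-/-* library stands alone at 59.1 for *Pgls*, and *Taldo1* steps down from WT to *Atm-/-* to *Sirt6-/-*.

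Compared with WT, no oxidative gene was significantly lower and no non-oxidative gene significantly higher in either knockout (quasi-likelihood F test of edgeR, adjusted p under 0.05 after Benjamini-Hochberg correction over all tested genes). In *Atm-/-*, 2 of 4 oxidative genes rose and 4 of 4 non-oxidative genes fell. The median log2 fold change was 0.36 in the oxidative and -0.53 in the non-oxidative arm, against 0.02 over all 13283 genes tested. Changes were common in this comparison: 68.4% of all tested genes were called, 34.7% higher and 33.6% lower. Libraries did not overlap between *Atm-/-* and WT for 7 members, all but *Pgd*, against 72.6% of tested genes. In *Sirt6-/-*, 4 of 4 oxidative genes rose and 4 of 4 non-oxidative genes fell, with medians of 0.74 and -0.80 against 0.02 over 13206 genes. There 76.6% of tested genes were called, 39.2% higher and 37.4% lower, and libraries did not overlap for 8 of 8 members against 79.0% of tested genes. With so many genes called, the number of members called, 6 and 8 of 8, says little by itself. The direction of each arm is a description, since it was not tested and the members were chosen with earlier results of these data known. In *Atm-/-* the oxidative rise rests on *G6pdx* and *Pgls*, with *H6pd* at -0.18 and *Pgd* at 0.04 (log2), neither called. The comparisons share the WT libraries. With library totals in place of TMM the median of all genes in *Atm-/-* shifted up by 0.16 and the split of calls from 4611 higher and 4469 lower to 6156 higher and 3326 lower. *Pgd* was then called higher in *Atm-/-*, and the fall of *Tkt* in *Sirt6-/-* was no longer called. The other calls of the members against WT held.

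*G6pdx* encodes the cytosolic glucose-6-phosphate dehydrogenase, the committed step and the first source of NADPH. It stood at 44.1, 44.2 and 39.0 normalized RPKM in WT, 65.8, 72.5 and 66.1 in *Atm-/-*, and 49.1, 52.4 and 55.0 in *Sirt6-/-*. The 3 genotypes did not overlap, with *Atm-/-* highest. The rise was 1.60-fold in *Atm-/-* (log2 fold change 0.67, standard error 0.06, edgeR adjusted p = 1.2e-07) and 1.23-fold in *Sirt6-/-* (0.30, standard error 0.06, adjusted p = 0.00037). Exons of *G6pdx* share 418 bases with *Ikbkg* on the opposite strand, and the sources do not say whether strand was used in counting. *Ikbkg* rose too, with log2 fold changes of 0.34 and 0.47.

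*H6pd* encodes the dehydrogenase of the endoplasmic reticulum lumen, which carries out the first steps of the pathway on a separate pool of NADPH. Its levels were 7.92, 9.90 and 8.22 normalized RPKM in WT and 7.78, 7.52 and 7.85 in *Atm-/-*. In *Sirt6-/-* they were 30.4, 31.4 and 30.9. The *Sirt6-/-* libraries thus lay far above all 6 others. The rise was 3.56-fold (log2 fold change 1.83, standard error 0.07, edgeR adjusted p = 8.7e-12), the largest change of any member against WT, and 17.2% of all tested genes changed more. In *Atm-/-*, the libraries lay just under the lowest WT library, and the difference did not pass the test (log2 fold change -0.18, 95% interval -0.36 to 0.0019, edgeR adjusted p = 0.073). It passed when WT replicate 1 was left out (-0.24, adjusted p = 0.027) and with all 9 libraries in one fit (-0.17, adjusted p = 0.042), and shrank to -0.07 (adjusted p = 0.41) when WT replicate 2, the highest WT library, was left out. With library totals it was -0.01.

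*Pgls* encodes the lactonase that opens the ring of the product of *G6pdx*. In WT it gave 22.8, 26.6 and 22.6 normalized RPKM, in *Atm-/-* 34.2, 34.2 and 59.1, and in *Sirt6-/-* 35.3, 38.4 and 45.4. Every knockout library was above every WT library. The log2 fold change was 0.82 in *Atm-/-* (standard error 0.17, edgeR adjusted p = 0.00053) and 0.73 in *Sirt6-/-* (standard error 0.10, adjusted p = 6.6e-06). *Atm-/-* replicate 3 alone set the wide spread, and without it the rise in *Atm-/-* was 0.51 on the log2 scale, still called. That library's *Pgls* value stood 0.79 (log2) above its 2 fellow libraries, and only 0.0214% of 9365 well counted genes deviated upward more in it. On the same strand, *Pgls* shares 776 exonic bases with *Fam129c*. The latter had 48 to 160 reads in all libraries against 829 to 2335 for *Pgls*, and its log2 fold changes were 0.71 and 1.32.

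*Pgd* encodes 6-phosphogluconate dehydrogenase, which makes further NADPH and ribulose 5-phosphate and closes the oxidative arm. Its WT values were 79.8, 77.4 and 76.0 normalized RPKM. *Atm-/-* libraries gave 74.0, 83.9 and 83.7, and *Sirt6-/-* libraries 125.5, 129.6 and 137.4. *Pgd* thus overlapped between *Atm-/-* and WT, while every *Sirt6-/-* library lay above both. The rise in *Sirt6-/-* was 1.69-fold (log2 fold change 0.75, standard error 0.05, edgeR adjusted p = 2.2e-09). In *Atm-/-* the log2 fold change was 0.04 (95% interval -0.07 to 0.16, edgeR adjusted p = 0.48), and 0.21 (adjusted p = 0.0029) with library totals.

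*Rpia*, the isomerase that makes ribose 5-phosphate, stands where the non-oxidative arm meets nucleotide synthesis. WT libraries gave 19.6, 16.6 and 17.4 normalized RPKM, *Atm-/-* libraries 8.61, 7.78 and 9.60, and *Sirt6-/-* libraries 9.64, 9.84 and 11.3. All 6 knockout libraries lay below the lowest WT library. The log2 fold changes were -1.05 in *Atm-/-* (standard error 0.10, edgeR adjusted p = 2.5e-07) and -0.80 in *Sirt6-/-* (standard error 0.09, adjusted p = 1.8e-06). In *Atm-/-*, *Rpia* was the member with the largest change, and 22.0% of all tested genes changed more.

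*Rpe* encodes the epimerase that makes xylulose 5-phosphate, the donor for transketolase, from the same substrate as *Rpia*. Its values were 21.3, 22.1 and 23.2 normalized RPKM in WT, 15.8, 14.7 and 14.7 in *Atm-/-*, and 13.8, 12.3 and 11.9 in *Sirt6-/-*. The genotypes stood apart in that order. The fall was -0.57 (log2; standard error 0.06, edgeR adjusted p = 1.9e-06) in *Atm-/-* and -0.80 (standard error 0.07, adjusted p = 8.9e-08) in *Sirt6-/-*. *Rpe* exons overlap those of *Kansl1l* on the opposite strand over 558 bases. *Kansl1l* had 496 to 563 reads in the 9 libraries and log2 fold changes of -0.08 (adjusted p = 0.43) and -0.02 (adjusted p = 0.84).

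*Tkt* encodes the thiamine-dependent transketolase and had the smallest change of the non-oxidative genes in both knockouts. It gave 84.3, 89.7 and 81.4 normalized RPKM in WT, 68.6, 73.0 and 68.6 in *Atm-/-*, and 76.1, 77.9 and 80.4 in *Sirt6-/-*. The fall in *Atm-/-* was 1.22-fold (log2 fold change -0.29, standard error 0.05, edgeR adjusted p = 9.7e-05). In *Sirt6-/-* it was 1.09-fold (-0.12, adjusted p = 0.032), and 86.6% of tested genes changed more. This small difference was lost without WT replicate 2 (adjusted p = 0.059), *Sirt6-/-* replicate 1 (0.12) or *Sirt6-/-* replicate 2 (0.086), with at least 10 counts required in every library (0.053) and with library totals (-0.03, adjusted p = 0.54).

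*Taldo1* encodes transaldolase, which passes carbon from sedoheptulose 7-phosphate back to fructose 6-phosphate. WT libraries gave 117.8, 136.2 and 122.8 normalized RPKM, *Atm-/-* libraries 91.5, 95.2 and 84.1, and *Sirt6-/-* libraries 47.8, 49.8 and 48.9. The 3 genotypes did not overlap. The fall was 1.40-fold in *Atm-/-* (log2 fold change -0.48, standard error 0.06, edgeR adjusted p = 6.4e-06) and 2.57-fold in *Sirt6-/-* (-1.36, standard error 0.06, adjusted p = 2.2e-11). In *Sirt6-/-* it was the largest fall of the pathway, and 22.8% of all tested genes changed more.

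**Figure D2:**
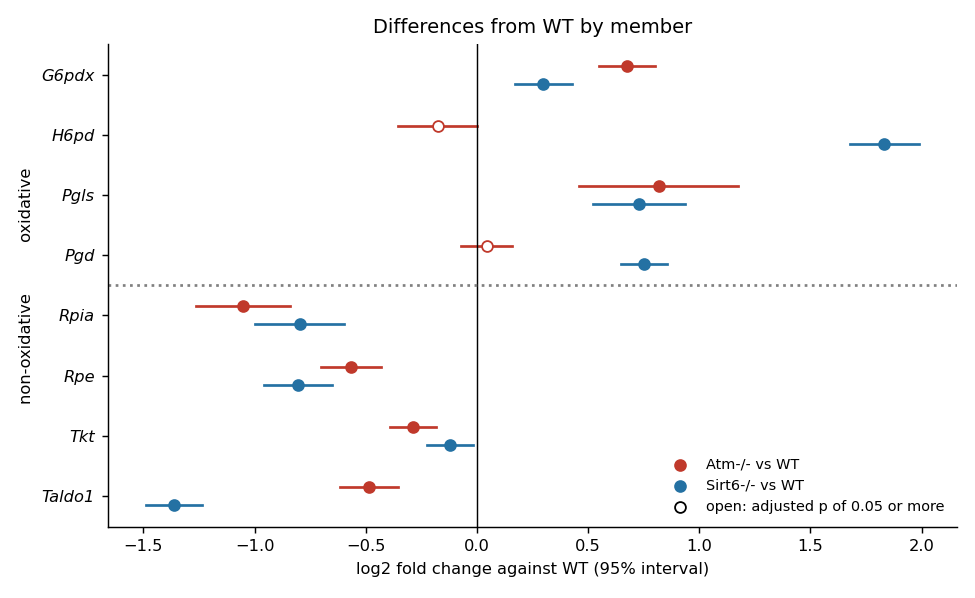
Log2 fold change against WT (horizontal axis) with its 95% interval for each member in *Atm-/-* (red) and *Sirt6-/-* (blue), open where the adjusted p was 0.05 or more. Filled points of the oxidative genes (above the dotted line) lie right of 0 and those of the non-oxidative genes left of it, from -1.36 for *Taldo1* to 1.83 for *H6pd*.

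The knockouts were then compared with each other. Of the 8 members, 3 were higher in *Atm-/-* than in *Sirt6-/-*, 4 lower and 1 not called, while 75.8% of 13460 tested genes were called, 38.0% higher and 37.8% lower. Libraries did not overlap for 7 members, all but *Pgls*, against 78.2% of tested genes. Here the calls were mixed within each arm, with 1 oxidative gene higher and 2 lower, and 2 non-oxidative genes higher and 2 lower. The median log2 difference was -0.30 in the oxidative and 0.05 in the non-oxidative arm, against 0.00 over all genes. *H6pd* was 3.98-fold lower in *Atm-/-* (log2 fold change -1.99, standard error 0.05, edgeR adjusted p = 7.8e-19). *Pgd* was 1.62-fold lower (-0.69, adjusted p = 4.8e-11), whereas *G6pdx* was 1.31-fold higher (0.39, adjusted p = 4.2e-07). The oxidative genes thus differed from one another in which knockout was higher. *Taldo1* was 1.86-fold higher in *Atm-/-* (0.89, adjusted p = 2.4e-12) and *Rpe* 1.19-fold higher (0.25, adjusted p = 0.0031). *Tkt* was slightly lower (-0.15, adjusted p = 0.0023). *Rpia* was also lower (-0.24, adjusted p = 0.038). This call was lost without *Sirt6-/-* replicate 3 (0.20), *Atm-/-* replicate 1 (0.077) or *Atm-/-* replicate 2 (0.17), with library totals (0.11) and with DESeq2 (0.073). *Pgls* did not pass (0.10, 95% interval -0.19 to 0.40, adjusted p = 0.52), and without *Atm-/-* replicate 3 it was lower in *Atm-/-* (-0.21, adjusted p = 0.040).

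Summed over its genes, the oxidative arm was the smaller in WT, about equal in *Atm-/-* and the larger in *Sirt6-/-*. The oxidative genes together made 152.8 ± 6.34 normalized RPKM in WT, 198.9 ± 17.5 in *Atm-/-* and 253.6 ± 14.3 in *Sirt6-/-* (SD, n = 3). The non-oxidative genes made 250.8 ± 11.9, 184.0 ± 6.84 and 149.9 ± 2.60. The sum of all 8 changed little: it was 403.7 ± 16.8 in WT, 382.9 ± 14.6 in *Atm-/-* and 403.6 ± 16.9 in *Sirt6-/-*. The oxidative share of that sum was 37.9 ± 0.876% in WT, 51.9 ± 2.82% in *Atm-/-* and 62.8 ± 0.907% in *Sirt6-/-*.

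Within a library the ratio of the arms does not depend on how libraries are scaled. The log2 ratio of oxidative to non-oxidative reads per kilobase was -0.65, -0.74 and -0.75 in the WT libraries, -0.02, 0.06 and 0.29 in *Atm-/-*, and 0.71, 0.75 and 0.82 in *Sirt6-/-*. The 3 genotypes did not overlap, and the highest *Atm-/-* value came from replicate 3, the library with high *Pgls*. The mean difference from WT was 0.82 in *Atm-/-* (1.77-fold; 0.73 to 0.89 with each library left out in turn) and 1.47 in *Sirt6-/-* (2.77-fold; at least 1.44). *Atm-/-* lay 0.65 below *Sirt6-/-*. These sums are dominated by the abundant genes and carry no test.

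**Figure D3:**
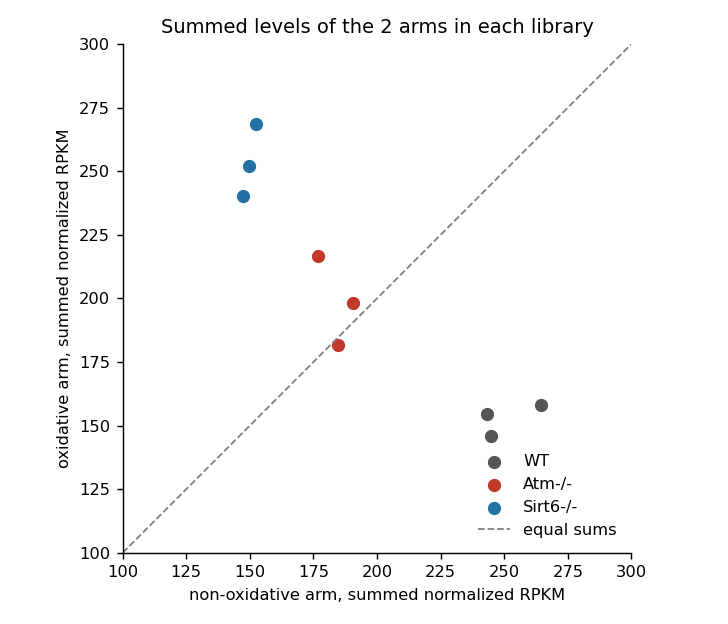
Summed normalized RPKM of the oxidative genes (vertical axis) against that of the non-oxidative genes (horizontal axis), 1 point for each library; the axes share a scale that does not start at 0, and the dashed line marks equal sums. The WT libraries lie below the line, the *Sirt6-/-* libraries well above it, and the *Atm-/-* libraries near it.

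The make-up of each sum showed which genes carried it. In WT, *Taldo1* made up 31.1 ± 1.34% of the 8-gene sum, and this dropped to 23.6 ± 1.96% in *Atm-/-* and 12.1 ± 0.434% in *Sirt6-/-*. *Pgd* went from 19.3 ± 0.886% to 21.01 ± 0.722% and 32.4 ± 0.180%. *G6pdx* made up 10.5 ± 0.551%, 17.8 ± 0.948% and 12.9 ± 0.216%. *H6pd* took 2.15 ± 0.180% in WT, 2.02 ± 0.0959% in *Atm-/-* and 7.66 ± 0.284% in *Sirt6-/-*. The gain of the oxidative arm was thus mostly *G6pdx* and *Pgls* (5.93 ± 0.308% to 11.1 ± 3.44%) in *Atm-/-*, and mostly *Pgd* and *H6pd* in *Sirt6-/-*. *Tkt* kept 21.1 ± 0.213%, 18.3 ± 0.772% and 19.4 ± 0.279%.

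**Figure D4:**
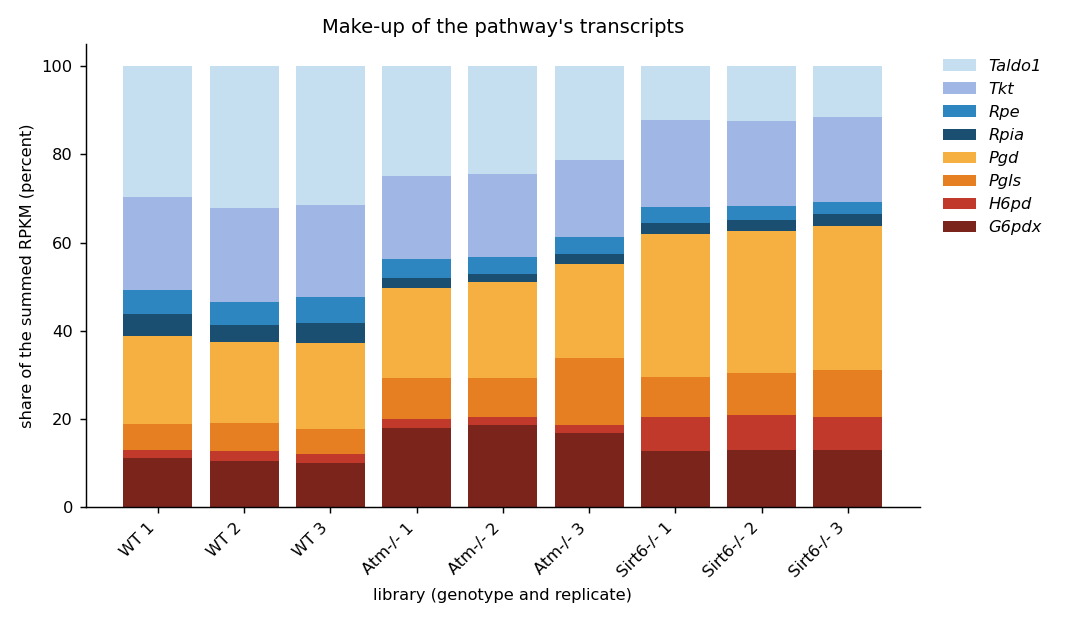
Share of each member in the summed normalized RPKM of the 8 genes (vertical axis, percent) in each library (horizontal axis), oxidative genes in red to yellow and non-oxidative genes in blue. The oxidative part grows from 37.9% on average in WT to 51.9% in *Atm-/-* and 62.8% in *Sirt6-/-*, while *Taldo1* shrinks.

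Ratios were computed for 7 chosen pairs of members, without a share over other gene pairs. Between 72.6% and 79.0% of tested genes did not overlap, depending on the comparison, so a lack of overlap says little by itself. The cytosolic *G6pdx* exceeded its endoplasmic reticulum counterpart *H6pd* by 4.93 ± 0.575 times in WT, 8.84 ± 0.696 times in *Atm-/-* and 1.69 ± 0.0827 times in *Sirt6-/-*, per length and with no overlap of genotypes. The ratio of *Pgd* to *G6pdx*, the dehydrogenases that make NADPH in sequence, was 1.83 ± 0.1002, 1.18 ± 0.0748 and 2.51 ± 0.0411. Both knockouts thus left WT in this ratio, on opposite sides. *Tkt* to *Taldo1*, the enzymes of the carbon exchange, was 0.679 ± 0.0320 in WT, 0.777 ± 0.0340 in *Atm-/-* and 1.60 ± 0.0397 in *Sirt6-/-*. For *Rpia* to *Rpe*, which compete for ribulose 5-phosphate, the ratio was 0.808 ± 0.0992, 0.576 ± 0.0669 and 0.815 ± 0.127, so that WT and *Sirt6-/-* overlapped. *Pgls* to *G6pdx*, which act in sequence, was 0.565 ± 0.0433, 0.629 ± 0.231 and 0.759 ± 0.0583, and *Atm-/-* (0.472 to 0.895) overlapped both other genotypes. *H6pd* to *Pgd* was 0.112 ± 0.0147 in WT and 0.0962 ± 0.00798 in *Atm-/-*, which overlapped, and 0.236 ± 0.00998 in *Sirt6-/-*. Across the arms, *G6pdx* to *Tkt* was 0.499 ± 0.0223, 0.972 ± 0.0190 and 0.667 ± 0.0198, without overlap.

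Close relatives of the members were at or near the limit of detection. *G6pd2*, the intronless copy of *G6pdx*, had 0 reads in all 9 libraries, which allows up to 0.0932 CPM. *Tktl1* had 2 to 3 reads in WT, 9 to 14 in *Atm-/-* and 0 in *Sirt6-/-*, and *Tktl2* had 0 to 2. None of these 3 passed the filter on low counts.

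Among 13 regulators of the pathway, 12 could be tested. In *Atm-/-*, 6 rose and 6 fell (median log2 fold change 0.01), and in *Sirt6-/-*, 5 rose, 2 fell and 5 were not called (median 0.10). *Tigar*, listed as *9630033F20Rik*, encodes a phosphatase that slows glycolysis and so leaves glucose 6-phosphate for the pathway. It had 9.82, 9.53 and 9.66 normalized RPKM in WT, 8.58, 8.17 and 7.90 in *Atm-/-*, and 3.63, 3.70 and 3.88 in *Sirt6-/-*. Both knockouts lay below WT without overlap, with log2 fold changes of -0.24 in *Atm-/-* (edgeR adjusted p = 0.0064) and -1.37 in *Sirt6-/-* (adjusted p = 5.4e-10). With library totals the former was -0.08 (adjusted p = 0.32). *Hspb1*, the heat shock protein that links ATM to glucose-6-phosphate dehydrogenase, gave 27.6, 28.9 and 29.6 in WT, 34.9, 33.0 and 55.2 in *Atm-/-*, and 43.6, 50.2 and 52.1 in *Sirt6-/-*. It rose by 0.51 (adjusted p = 0.0074) and 0.76 (adjusted p = 5.3e-07) on the log2 scale. As for *Pgls*, *Atm-/-* replicate 3 was the high library, and without it the rise was 0.24 (adjusted p = 0.024). The DESeq2 Wald test did not call it (adjusted p = 0.067).

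The other listed regulators named here are transcription factors and their partners, apart from *Txnip*. *Trp53* was 117.5 ± 5.26 normalized RPKM in WT, 13.9 ± 1.23 in *Atm-/-* (log2 fold change -3.09, edgeR adjusted p = 3.0e-14) and 149.4 ± 1.49 in *Sirt6-/-* (0.35, adjusted p = 7.9e-06). In *Atm-/-*, *Nfe2l2*, the factor that reads the antioxidant response element, rose by 0.65. *Myc* (0.64) and *Mlx* (0.55), a partner of glucose-sensing factors, rose as well. *Txnip*, a glucose-responsive brake on glucose uptake, changed by -1.70 and *Hif1a* by -0.61. In *Sirt6-/-*, *Nfe2l2* also rose (0.26), *Hif1a* moved the other way (0.58) and *Txnip* fell (-0.33). *Ldb1* rose in both knockouts (0.26 and 0.52).

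The enzymes that use ribose phosphate or salvage pentoses were mixed. Of 14 genes, 5 rose, 4 fell and 5 were not called in *Atm-/-* (median 0.20). In *Sirt6-/-*, 4 rose, 4 fell and 6 were not called (median -0.05). The largest change in *Atm-/-* was that of *Upp1* (4.48), whose mean level was too low for the rule that named the other genes. It had 14 to 19 reads in WT, 379 to 418 in *Atm-/-* and 26 to 44 in *Sirt6-/-* (0.96). *Prps2*, one of the synthetases that turn ribose 5-phosphate into the PRPP needed for nucleotides, rose in *Atm-/-* (0.63) and fell in *Sirt6-/-* (-0.74). *Prps1*, its paralogue, fell in *Sirt6-/-* (-0.65). Of the associated protein genes, *Prpsap1* rose in *Atm-/-* (0.57) and *Prpsap2* in both (0.35 and 0.59). *Dera*, the aldolase that breaks down deoxyribose 5-phosphate, fell in both (-0.89 and -0.87). *Pnp*, which releases ribose 1-phosphate from purine nucleosides, rose in *Sirt6-/-* (0.69) and fell in *Atm-/-* (-0.23). *Nudt5* fell in both (-0.33 and -0.48), and with library totals its change in *Atm-/-* was -0.16 and not called. The row listed as *Pgm1*, whose accession RefSeq now gives to *Pgm2*, had 0.44 and 0.20, and the row listed as *Pgm2*, now *Pgm1*, had -0.37 in *Atm-/-*.

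Genes around NADPH supply outside the pathway did not move as a block. The list of 15 was broad, and not all of its enzymes make NADPH themselves. In *Atm-/-*, 4 rose, 6 fell and 5 were not called (median 0.06). In *Sirt6-/-*, 7 rose, 6 fell and 2 were not called (median 0.12). *Nadk2*, the mitochondrial kinase that makes NADP+, rose in both (1.03 and 1.80). *Idh1*, the cytosolic isocitrate dehydrogenase, fell in *Atm-/-* (-0.76) and rose in *Sirt6-/-* (0.77). The mitochondrial *Nnt* rose in *Atm-/-* (0.75) and *Idh2* in both (0.26 and 0.42). *Mthfd2l*, of mitochondrial folate metabolism, rose in *Sirt6-/-* (0.52). Among the other folate enzymes, *Aldh1l2* (-1.99 and -0.87) and *Mthfd2* (-0.41 and -0.97) fell in both. The malic enzyme *Me2* fell in *Sirt6-/-* (-0.86).

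Of 8 antioxidant enzymes listed as users of NADPH, 5 rose, 1 fell and 2 were not called in *Atm-/-* (median 0.42), and 4 rose, 2 fell and 2 were not called in *Sirt6-/-* (median 0.32). This list was broad too, and not all of its enzymes spend NADPH in their own reaction. The quinone reductase *Nqo1*, a classical NFE2L2 target, gave 6.87, 8.67 and 6.46 normalized RPKM in WT, 12.5, 16.0 and 14.2 in *Atm-/-*, and 54.5, 51.4 and 54.6 in *Sirt6-/-*. Its log2 fold changes were 0.95 (edgeR adjusted p = 9.4e-06) and 2.87 (adjusted p = 8.8e-13). *Akr1b3*, aldose reductase, also rose in both (0.64 and 0.76), and so did *Blvrb* (0.51 and 0.84). Glutathione reductase, *Gsr*, rose in *Atm-/-* (0.66) and fell in *Sirt6-/-* (-0.34), where thioredoxin reductase *Txnrd1* fell too (-0.54). *Cbr1* fell in *Atm-/-* (-0.51).

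At the glycolytic steps that feed or drain the pathway, 9 of 11 genes were tested, and 5 rose and 3 fell in *Atm-/-* (median 0.17) while 3 rose and 5 fell in *Sirt6-/-* (median -0.29). *Hk1*, a hexokinase that makes glucose 6-phosphate, gave 12.8, 12.9 and 11.9 normalized RPKM in WT, 37.5, 38.4 and 36.3 in *Atm-/-*, and 37.2, 34.4 and 34.6 in *Sirt6-/-*, with all knockout libraries far above WT (edgeR adjusted p = 2.9e-12 and 3.8e-12). *Gpi1*, the isomerase that draws glucose 6-phosphate into glycolysis, fell in both (-0.32 and -0.73). The phosphofructokinase genes *Pfkl* (0.51 and 0.67) and *Pfkm* (0.27 and 0.32) rose in both, and their paralogue *Pfkp* fell in both (-1.03 and -0.91). *Hk2* rose in *Atm-/-* (0.33) and fell in *Sirt6-/-* (-0.41). *Tpi1* fell in *Atm-/-* (-0.20), which library totals reduced to -0.04 (adjusted p = 0.51).

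**Figure D5:**
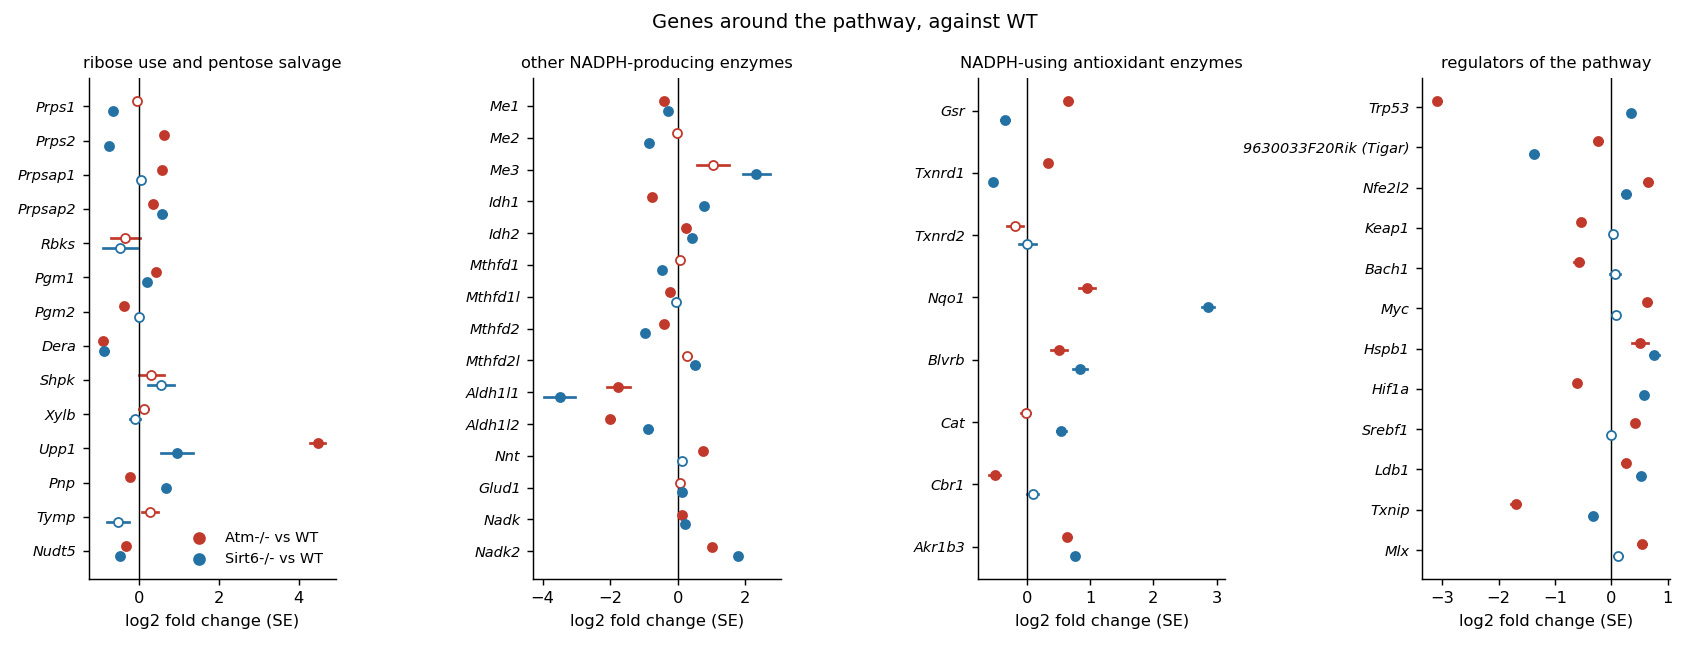
Log2 fold change against WT with its standard error (horizontal axes) for the tested genes around the pathway, in *Atm-/-* (red) and *Sirt6-/-* (blue), open where not called. Genes of each panel lie on both sides of 0, with *Trp53* (-3.09) farthest left among the regulators in *Atm-/-* and *Nqo1* (2.87) farthest right among the antioxidant enzymes in *Sirt6-/-*.

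For each member, the tested genes with the most similar profile over the 9 libraries were sought among 9364 well counted genes. The measure was the root mean square difference of centred log2 levels, where 0 is identity. *G6pdx* was nearest to *Slc2a1*, which encodes the glucose transporter GLUT1 (0.042), and then *Nsa2* (0.046). *Taldo1* was nearest to the enolase gene *Eno3* (0.068) and *Asap2* (0.076). *H6pd* had *Styk1* and *Agrn* (both 0.12), and *Pgd* had *Cdk2ap2* (0.045) and *Map1lc3b* (0.046). *Rpia* was nearest to *Nuak1* (0.066) and *Zfp467* (0.072), *Rpe* to the uridine kinase gene *Uck2* (0.047) and *Kpna4* (0.049), and *Tkt* to *Rpl31* (0.036) and *Mrfap1* (0.037). *Pgls* had the most distant neighbours, *1110065P20Rik* (0.15) and *Hspb1* (0.17), both at larger values than for the other members. No member was among the 2 nearest genes of another. *Rpia* and *Rpe*, which share a substrate, differed by 0.28, and *G6pdx* and *Pgd* by 0.45.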

How the data were processed

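Poly(A) RNA of 9 MEF libraries was sequenced on an Illumina HiSeq X instrument by the authors, 3 each of WT, *Atm-/-* and *Sirt6-/-*. For each library the authors deposited whole-number read counts of 24341 genes without normalization, a listed transcript length, and RPKM made from the same counts. The deposited RPKM correct for depth and length but not for library composition. The build was mm10 by the submitters' processing notes, and the aligner and counting tool are not given in the sources used here. Reads of overlapping genes may have been assigned to either.

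Counts were tested with edgeR 4.0.16 in R 4.3.3, each pair of genotypes separately: filterByExpr, TMM, glmQLFit (prior count 0.125) and glmQLFTest. A call was an adjusted p under 0.05 by the Benjamini-Hochberg method over all tested genes. Standard errors were derived from the F statistic. All 8 members passed the filter in each comparison. Printed levels are counts divided by the TMM-scaled library size and the listed length. Arm sums add these levels. The pipeline was tested on simulated data with few changed genes, balanced in direction. That test does not cover the scaling where most genes differ, as here.

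Groups were taken from the sample titles. The chi-square per gene between libraries of a genotype was 5.11 to 15.6 and 0 pairs were identical, so each was counted as a sample. WT replicate 2 stood apart, with 15.6 and 14.4 against the other WT libraries, while all other pairs had 5.11 to 6.66. The labels give no batch. The members and gene lists were chosen with earlier results of these data known. Beyond the members, *Tigar*, *Hspb1*, the label-check genes and the paralogues, named genes were the up to 3 largest rises and 3 largest falls of each list among called genes without overlap whose mean log2 CPM reached 3, and the 2 nearest profiles per member. *Nqo1*, *Hk1* and *Trp53* were chosen for level values after their changes were seen, and *Upp1* was named for its change although below that CPM limit. Names were matched to RefSeq by accession for 99.0% of genes.

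Alternatives were DESeq2 size factors, library totals, a minimum of 10 counts in every sample, no filter, all 9 samples in one fit, the DESeq2 1.42.0 Wald test, a 1.5-fold threshold, the replicate number as a block, and each library left out in turn.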

Additional observations from a re-analysis of the deposited data

How the results depend on the processing

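Of 312 member fold changes recomputed under an alternative, 298 kept their direction and their side of the threshold, 10 lost a call, 3 gained one and 1 reversed, and the reversal was *Pgls* between the knockouts (-0.21 on the log2 scale without *Atm-/-* replicate 3, up to 0.24 with another library left out). Of 819 recomputed fold changes of the other named genes, 812 kept theirs and none reversed. Not recomputed were those of *Upp1* and of rule-named genes in a knockout where the rule did not name them, *Tigar*, *Hspb1* and *Trp53* aside. With each library left out in turn, 2 members were higher in *Atm-/-* than in WT throughout and 4 in *Sirt6-/-*, while 4 to 5 and 3 to 4 were lower. Requiring a 1.5-fold change as well left 4595 of 13283 tested genes called in *Atm-/-* against WT (2350 higher, 2245 lower). It left 5990 of 13206 in *Sirt6-/-* against WT (3340 higher, 2650 lower) and 5647 of 13460 between the knockouts (2630 higher, 3017 lower). With that threshold *G6pdx* (1.60-fold) and *Pgls* (1.76-fold) stayed higher in *Atm-/-* than in WT, and 1 member, *Rpia*, stayed lower. In *Sirt6-/-* against WT, *G6pdx* (1.23-fold) and *Tkt* (1.09-fold) fell short of it, while the other members passed. Between the knockouts, 1 member was higher and 2 lower in *Atm-/-* than in *Sirt6-/-*. The change of the log2 arm ratio in *Sirt6-/-* against WT was 1.68 as a mean of log2 values, 1.37 without *H6pd* and 1.94 without *Tkt*, and *Atm-/-* lay 1.02 below *Sirt6-/-* (-1.02) without *Tkt*. By construction these settings change which genes enter the arm or how they are weighted. TMM assumes that most genes are unchanged, whereas 68.4% to 76.6% were called, so small differences depend on the scaling. With library totals, calls as large as -0.33 (*Nudt5* in *Atm-/-*) and -0.24 (*Tigar* in *Atm-/-*, *Rpia* between the knockouts) were lost.

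The replicate numbers were not found to pair the libraries. Same-numbered deviations had r of -0.028 to 0.017 for *Atm-/-* and WT, -0.029 to 0.022 for *Sirt6-/-* and WT, and 0.011 to 0.040 for the knockouts, where all 6 libraries correlated best with their own number, a hint from the data only. The fit with the replicate block called 8833, 10040 and 10157 genes and changed no member's call, with 2 members higher and 4 lower in *Atm-/-* and 4 and 4 in *Sirt6-/-*.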
